A study of Mus musculus with 6 samples.

Results

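A group of 36 germline genes was examined in red cell precursors of the mouse fetal liver. The group was set by name, as genes that are normally silent in somatic cells under DNA methylation, and not by a cut on their signal. Earlier results of these data were known when it was chosen. Of the 36 genes, 34 had at least 1 probe set annotated to that gene alone, out of 18193 genes measured this way. Tdrd6 and Fkbp6 had none and are not analysed here. The 34 genes were read by 41 probe sets, with 1 probe set for 28 genes and several for 6. RNA came from 2 cell subsets named S1 and S3, sorted from fetal livers of Balb/C embryos by the surface proteins CD71 (the transferrin receptor) and Ter119 (a red cell antigen) and by lineage markers. No genetic change or treatment is named for either subset. S1 holds the less mature and S3 the more mature cells, with 3 arrays for each, prepared from cells sorted on 3 separate days. By their stage labels the S1 embryos were at embryonic day 12.5 and those of S3 at 13.5, although another label puts all 6 arrays at 13.5, so subset and embryo age cannot be told apart. The profiles were made for a study of the loss of DNA methylation across the genome during red cell formation. The arrays did not measure methylation, so silencing of these genes by it is taken from the name of the group and not shown for each gene.

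Germline genes serve meiosis, the defence of germ cells against transposons, and the making of sperm and eggs. Many have promoters rich in CpG, the dinucleotide that carries DNA methylation in mammals, and these promoters are methylated in the early embryo by the de novo enzyme Dnmt3b and kept silent in body tissues. A second layer of repression comes from a Polycomb complex that holds E2f6, Mga, Max, L3mbtl2 and Pcgf6 and is guided by E2F sites and E-boxes, the motif that Mga and Max bind together. Loss of either layer is known to release some of these genes in cells outside the germline.

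The promoters are shown first, since they are the sequence on which both layers act. RefSeq promoter windows (assembly GRCm38.p6, 250 bases before to 50 bases after the gene's start, the first listed window per gene) were matched by symbol for 31 of the 36 genes. The median window held 19 CpG, and counts ran from 4 in Tdrd7 to 48 in Tdrd5. Of the 31 windows, 29 held at least 10 CpG (93.5%), against 67.1% of the 14452 windows of genes measured on the array, whose median was 17. The 6 windows are printed from 5′ to 3′ on the gene's strand, with every CpG in capitals. Syce2 and Rec8 were chosen because they read above background on every array, Hormad1, Sycp1 and Mael because they did so on none, and Dazl as a germ cell gene whose probe sets were above background on 1 array.
Syce2, chr8:84871861-84872160, plus strand: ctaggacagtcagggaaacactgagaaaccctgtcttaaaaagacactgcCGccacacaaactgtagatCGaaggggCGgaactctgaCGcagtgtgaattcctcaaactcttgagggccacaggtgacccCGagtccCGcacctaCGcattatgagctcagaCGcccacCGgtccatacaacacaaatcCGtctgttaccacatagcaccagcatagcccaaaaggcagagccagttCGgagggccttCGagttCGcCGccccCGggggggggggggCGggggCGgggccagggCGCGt
Rec8, chr14:55617916-55618215, plus strand: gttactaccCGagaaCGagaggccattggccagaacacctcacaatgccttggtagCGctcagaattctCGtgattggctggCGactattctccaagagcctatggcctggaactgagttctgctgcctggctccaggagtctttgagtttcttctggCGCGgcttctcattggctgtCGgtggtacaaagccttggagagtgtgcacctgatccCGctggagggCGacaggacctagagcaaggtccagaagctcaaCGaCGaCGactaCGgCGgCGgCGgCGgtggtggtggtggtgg
Hormad1, chr3:95559427-95559726, plus strand: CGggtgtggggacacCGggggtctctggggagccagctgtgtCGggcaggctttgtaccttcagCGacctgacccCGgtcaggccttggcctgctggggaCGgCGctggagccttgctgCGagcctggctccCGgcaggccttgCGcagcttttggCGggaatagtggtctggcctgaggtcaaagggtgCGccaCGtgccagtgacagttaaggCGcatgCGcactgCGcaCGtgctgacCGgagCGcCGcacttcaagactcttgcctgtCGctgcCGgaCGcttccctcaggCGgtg
Sycp1, chr3:102936051-102936350, minus strand: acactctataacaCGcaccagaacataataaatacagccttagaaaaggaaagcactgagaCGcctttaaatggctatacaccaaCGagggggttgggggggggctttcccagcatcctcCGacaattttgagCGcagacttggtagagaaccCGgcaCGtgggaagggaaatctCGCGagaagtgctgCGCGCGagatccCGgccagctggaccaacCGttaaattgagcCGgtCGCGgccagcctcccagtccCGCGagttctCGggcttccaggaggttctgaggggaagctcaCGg
Mael, chr1:166238695-166238994, minus strand: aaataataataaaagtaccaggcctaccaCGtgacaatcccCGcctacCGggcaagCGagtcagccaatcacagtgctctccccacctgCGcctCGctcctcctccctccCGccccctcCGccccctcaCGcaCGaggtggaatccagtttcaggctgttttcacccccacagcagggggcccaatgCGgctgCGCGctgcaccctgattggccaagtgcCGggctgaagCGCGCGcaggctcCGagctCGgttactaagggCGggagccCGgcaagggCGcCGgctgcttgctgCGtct
Dazl, chr17:50293571-50293870, minus strand: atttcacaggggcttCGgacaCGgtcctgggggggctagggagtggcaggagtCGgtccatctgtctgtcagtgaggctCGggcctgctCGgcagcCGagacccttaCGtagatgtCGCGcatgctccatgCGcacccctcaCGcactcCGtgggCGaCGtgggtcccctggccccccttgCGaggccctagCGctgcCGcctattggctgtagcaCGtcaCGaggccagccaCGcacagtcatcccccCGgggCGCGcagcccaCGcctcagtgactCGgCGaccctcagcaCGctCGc
The windows of the readable genes Syce2 and Rec8 held 19 and 18 CpG, and those of Hormad1, Sycp1, Mael and Dazl held 24, 21, 24 and 28. Over all matched genes, the 7 windows of genes above background on all 3 arrays of a subset had a median of 16 CpG (12 to 23), and the 23 of the other measured genes a median of 20 (4 to 48).

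The E-box CACGTG, which reads the same on both strands, stood in the windows of 15 of the 31 genes (48.4%). It stood in 9.02% of the windows of all genes measured on the array, and in 11.2% of those with at least 10 CpG, where the germline genes had 51.7%. The E2F motif, searched as GCGGGA and TCCCGC and so on both strands, with overlapping matches allowed, stood in 13 of 31 (41.9%), against 29.8% of all measured genes and 41.4% of those with at least 10 CpG. The Hormad1 window above holds an E-box that begins 57 bases before the start, another that begins 20 bases before it, and an E2F motif that begins 95 bases before it. In Sycp1 an E-box begins 94 bases before the start and an E2F motif 2 bases after it. Mael holds an E-box that begins 223 bases before the start and E2F motifs that begin 143 bases before and 11 bases after it. Syce2 and Rec8 hold no E-box in this window and 1 E2F motif each, which begin 115 and 38 bases before the start. The Dazl window holds neither set of letters. An E-box stood in 2 of the 7 windows of readable genes (Sycp3 and Brdt) and in 12 of the 23 others. The E2F motif went the other way, in 4 of the 7 (57.1%) and in 9 of the 23 (39.1%). A match is a run of letters and not a measured binding site, and these shares carry no test.

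**Figure D1:**
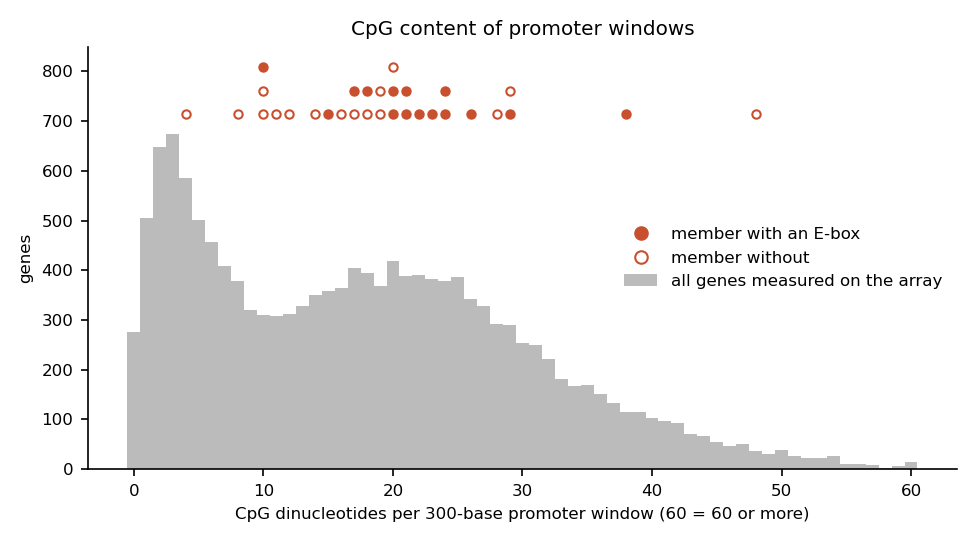
Number of CpG dinucleotides in the 300-base promoter window (x axis) of genes measured on the array (grey bars, number of genes) and of the 31 germline genes (circles above the bars, filled where the window holds an E-box). The germline genes run from 4 to 48 CpG, 29 of them have at least 10, and 15 circles are filled.

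Signals are the log2 values deposited by the authors, and 3 arrays a subset limit their precision. Background was taken per array as the 95th percentile of 27 control probe sets for bacterial transcripts and lay between 1.01 and 1.74. A probe set at or below it cannot be told from background here, which does not show that the RNA is absent. By construction 2 of the 27 controls lie above this level on each array, and 1 control did so on all 3 arrays of S1 and 1 on all 3 of S3. Both subsets mix arrays of 2 kinds, told apart by the log2 signal of the actin 5′ probe set minus that of the 3′ one. It was -2.59 to -2.08 on the short arrays (S1 replicates 1 and 2, S3 replicate 2) and -0.56 to -0.45 on the long arrays (S1 replicate 3, S3 replicates 1 and 3). The erythroid identity of the cells was plain, with 7 of 7 measured marker genes above background on all 6 arrays. Of the germ cell markers Dazl, Ddx4, Dppa3 and Prdm14, none was above background on all 3 arrays of either subset. Dazl and Ddx4 are themselves among the 36 genes, so they give no separate check for germ cells. Summed linear signal of megakaryocyte markers (3 of 4 measured, none called) was 49.4 to 154 in S1 and 285 to 302 in S3, and that of hepatoblast markers (4 of 4, none called) 218 to 274 and 199 to 775. The part of such cells in any difference was not tested.

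At this background level most germline genes were not readable in either subset. Above the median of the bacterial controls, a lower level, were 17 of 34 on all 3 S1 arrays and 19 on all 3 S3 arrays. The share of all genes at that lower level is not given here. Taking the brightest probe set per gene, 7 of 34 (20.6%) were above background on all 3 S1 arrays, where 59.1% of all genes were, and 5 of 34 (14.7%) on all 3 S3 arrays, where 56.4% of all genes were. Above background on no array were 12 (35.3%, against 17.8% of all genes), namely Sycp1, Sycp2, Mael, Tex101, Tex15, Stk31, Tdrd1, Tdrd9, Hormad1, Spo11, Smc1b and Piwil1. The 4 above background on all 6 arrays (11.8%, against 53.1% of all genes) were Sycp3, Dpep3, Rec8 and Syce2, and 8 were so on all 3 arrays of at least 1 subset (23.5%, against 62.5%). Another 14 crossed it on at least 1 array but on all 3 of neither subset. The share of all genes that did so is not given here. Of the 27 bacterial controls, 6 were above background on at least 1 array, so a crossing on single arrays says little. On its brightest probe set, no germline gene went from all 3 arrays of one subset above background to none in the other. Of all genes, 68 did so toward S3 (0.374%) and 159 toward S1 (0.874%). A dimmer Brdt probe set, described below, did go from no S1 array to all 3 S3 arrays. Per array, between 11 and 14 of the 34 genes were above background in S1 and between 10 and 12 in S3, and the ranges overlap. Over all genes that share was 66.9% to 68.4% per S1 array and 63.1% to 68.3% per S3 array.

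**Figure D2:**
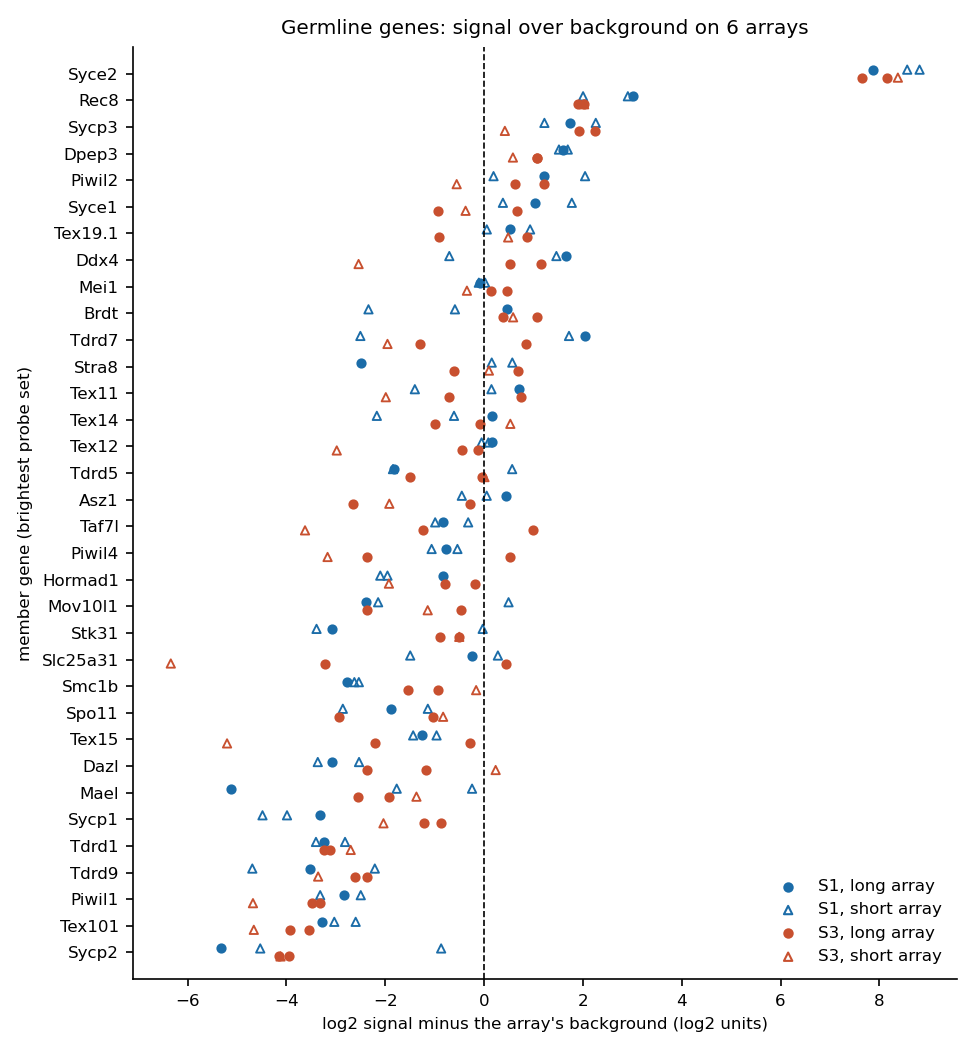
Log2 signal minus the array's own background (x axis, log2 units) for the brightest probe set of each of the 34 germline genes (y axis, ordered by mean signal), 1 symbol per array: blue S1, red S3, filled circles long arrays, open triangles short arrays. Syce2 lies far to the right of the dashed background line on all 6 arrays, Rec8, Sycp3 and Dpep3 lie a little to its right, and 12 genes lie left of it throughout.

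The clear exception was Syce2, a protein of the central element of the synaptonemal complex, the zipper that holds paired chromosomes together in meiosis. Its signal was 9.69, 9.94 and 9.62 on the S1 arrays and 9.16, 9.59 and 9.18 on the S3 arrays (log2 signal). Every array was far above background, and every S3 value lay below every S1 value, by a small margin. The mean went from 9.75 ± 0.17 in S1 to 9.31 ± 0.24 in S3 (SD, n = 3 arrays each), a log2 change of -0.45 ± 0.17 (SE, 95% interval -0.85 to -0.05) that did not pass (limma adjusted p = 0.129). Over the 11959 genes tested the median log2 change was -0.33, and the estimate for Syce2 relative to that was -0.11. Within the long arrays the difference was -0.45 and within the short arrays -0.23. With short and long arrays as a block Syce2 was called lower (log2 change -0.34, limma adjusted p = 0.0336), in a fit that called 5.81% of all genes higher and 41.2% lower. With that block and each array centred on its median the change was 0.11 (adjusted p = 0.825), while centring alone gave -0.22 and quantile normalization -0.24.

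The other synaptonemal and axis genes read low. Sycp3, a lateral element protein, read 3.39, 2.35 and 3.48 in S1 and 2.92, 1.63 and 3.76 in S3, above background on all 6 arrays and with overlapping subsets (log2 change -0.30 ± 0.66 (SE), limma adjusted p = 0.825). Without S3 replicate 2, the lowest array, its change was 0.27 (adjusted p = 0.823). Syce1, a partner of Syce2 in the central element, read 2.91, 1.51 and 2.77 in S1 and 0.07, 0.84 and 2.19 in S3. It was above background on all 3 S1 arrays and 1 S3 array, and the subsets overlap (log2 change -1.36 ± 0.71 (SE), limma adjusted p = 0.261). Tex11 and Tex12 were above background on 2 S1 arrays each and on 1 and 0 S3 arrays. Sycp1, the transverse filament that joins the lateral elements, Sycp2, a lateral element partner of Sycp3, and Hormad1, a marker of unsynapsed axes, were above background on no array. Of the 8 genes of this role, 3 were thus readable on all S1 arrays and 2 on all S3 arrays.

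Among genes of meiotic entry, cohesion and strand breakage, Rec8 alone was above background on all 6 arrays. Rec8, the meiotic form of the cleavable cohesin subunit, read 3.13, 4.04 and 4.74 in S1 and 3.02, 3.24 and 3.42 in S3. The subsets overlap through S1 replicate 1 (log2 change -0.75 ± 0.52 (SE), limma adjusted p = 0.409). Within the long arrays its difference was -1.52 and within the short ones -0.35, and limma called it in the long arrays alone (adjusted p = 0.0374), where S1 is 1 array assumed to vary like those of S3 and 34.7% of all genes were lower. Mei1, needed for meiotic strand breaks, read 1.15, 1.02 and 1.66 in S1 and 1.46, 0.86 and 1.66 in S3, straddling background in both (log2 change 0.05 ± 0.51 (SE), limma adjusted p = 0.967). Stra8, which retinoic acid induces at the start of meiosis, was above background on 2 arrays of each subset. Spo11, the enzyme that cuts DNA to start recombination, and Smc1b, a meiotic cohesin subunit, were above background on none.

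Of 10 measured genes for RNA binding, Piwi proteins and transposon control, none was above background on all S3 arrays. Piwil2, which binds piRNAs in male germ cells, read 1.32, 3.17 and 2.95 in S1 and 1.62, 0.66 and 2.73 in S3. All 3 S1 arrays and 2 S3 arrays were above background, with overlapping values (log2 change -0.81 ± 0.75 (SE), limma adjusted p = 0.554). Tex19.1, which restrains retrotransposons in germ cells, read 1.19, 2.06 and 2.26 in S1 and 0.10, 1.70 and 2.38 in S3 (log2 change -0.45 ± 0.71 (SE), limma adjusted p = 0.754), again with overlap. Its sign turned within the short arrays (0.07) and without S3 replicate 1 (0.20). Ddx4, the Vasa RNA helicase of germ cells, read 0.43, 2.59 and 3.39 in S1 and 2.15, -1.33 and 2.05 in S3, with 2 arrays of each subset above background (log2 change -1.18 ± 1.15 (SE), limma adjusted p = 0.580). Without S3 replicate 2, the lowest array, its change was -0.04. With short and long arrays as a block it was called lower (-2.06, adjusted p = 0.0481), but not with that block and median centring (adjusted p = 0.109). Dazl, an RNA-binding regulator of germ cell translation, read -1.40, -2.24 and -1.34 in S1 and -1.37, 1.44 and 0.35 in S3 on its brighter probe set, where only S3 replicate 2 was above background. Its dimmer probe set was above background on no array. Asz1, a germ plasm protein of the mitochondrial surface, was above background on 2 S1 arrays and no S3 array, Piwil4 on 1 S3 array (and on 1 array of each subset on its dimmer probe set) and Mov10l1, a helicase of piRNA production, on 1 S1 array. Piwil1, Mael and Tex15, all needed for transposon silencing in the male germline, were above background on no array.

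No Tudor-domain gene, of 5 measured, was above background on all 3 arrays of either subset. Tudor domains dock on methylated Piwi proteins. Tdrd7 varied most, with -1.37, 2.85 and 3.78 in S1 and 1.84, -0.74 and 0.23 in S3, so that 2 S1 arrays and 1 S3 array were above background, and its dimmer probe set was so on 1 S3 array. Tdrd5 was above background on 1 array of each subset, and Tdrd1, Tdrd9 and Stk31 on none.

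The testis forms of general proteins and the remaining genes held 2 that were readable on all S3 arrays. Dpep3, a membrane dipeptidase, read 2.82, 2.65 and 3.34 in S1 and 2.08, 1.79 and 2.60 in S3. All 6 arrays were above background and every S3 value lay below every S1 value, but the change did not pass (log2 change -0.78 ± 0.47 (SE), limma adjusted p = 0.333). Brdt, the testis member of the BET bromodomain family, was the 1 gene that read above background on all 3 S3 arrays and not on all S1 arrays. Its brightest probe set read -1.21, 0.54 and 2.21 in S1 and 2.09, 1.80 and 1.90 in S3, so S1 replicate 3 lay above every S3 array (log2 change 1.41 ± 0.86 (SE), limma adjusted p = 0.340). That difference was 2.13 within the short arrays and -0.22 within the long ones. A second Brdt probe set read -0.91, -0.23 and -0.39 in S1, all below background, and 1.55, 2.36 and 1.76 in S3, all above it. On that probe set S3 was at least 1.47-fold higher, taking S1 at background, and the subsets do not overlap (limma adjusted p = 0.101 over all probe sets). Another Brdt probe set overlapped between subsets, with 1 array of each above background. Taf7l, a testis form of a TFIID subunit, was above background on 1 S3 array, Slc25a31, a testis ADP/ATP carrier, on 1 array of each subset and Tex14, a protein of the bridges between germ cells, likewise. Tex101, a germ cell surface protein, was above background on no array and lowest in S3 (-2.54, -3.45 and -2.41, against -1.90, -1.47 and -1.55), but values under background have no order.

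The comparison of S3 with S1 asked whether germline genes differ between an earlier and a later stage of red cell formation, a process in which the study followed the loss of DNA methylation. Of the 34 genes, 10 passed the filter on dim signal, with a mean log2 signal above 1.12, and limma called none of them higher and none lower at an adjusted p under 0.05. Of all 11959 genes tested, 2.53% were called higher and 12.8% lower. At an unadjusted p under 0.05 none was higher and 1, Syce2, was lower, against 5.33% and 24.2% of all genes. Since dim genes can pass only through bright arrays, all 34 were also fitted without the filter. There too limma called 0 higher and 0 lower, where 1.5% of 18193 genes were higher and 7.15% lower. At an unadjusted p under 0.05, 2 were higher (Sycp1 and Smc1b, 5.88% against 4.34% of all genes) and 1 lower (Syce2, 2.94% against 17.4%). Sycp1 and Smc1b were below background on every array of both subsets, so no fold is given. In that fit 14 of the 34 genes had a positive and 20 a negative change (over all genes 36.4% and 63.6%), with a median log2 change of -0.45, where the median of all genes was -0.28. Every S3 array lay above every S1 array for 2 of 34 genes (Sycp1 and Smc1b, 5.88%, against 5.42% of all genes). Every S3 array lay below every S1 array for 4 (Tex101, Tex12, Dpep3 and Syce2, 11.8%, against 21.9%). Of the 41 single probe sets, 0 were called in either direction (0.779% of all probe sets were called higher and 3.14% lower), and at an unadjusted p under 0.05 there were 2 higher (Sycp1 and Brdt, 4.88% against 3.73%) and 1 lower (Syce2, 2.44% against 12.3%).

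**Figure D3:**
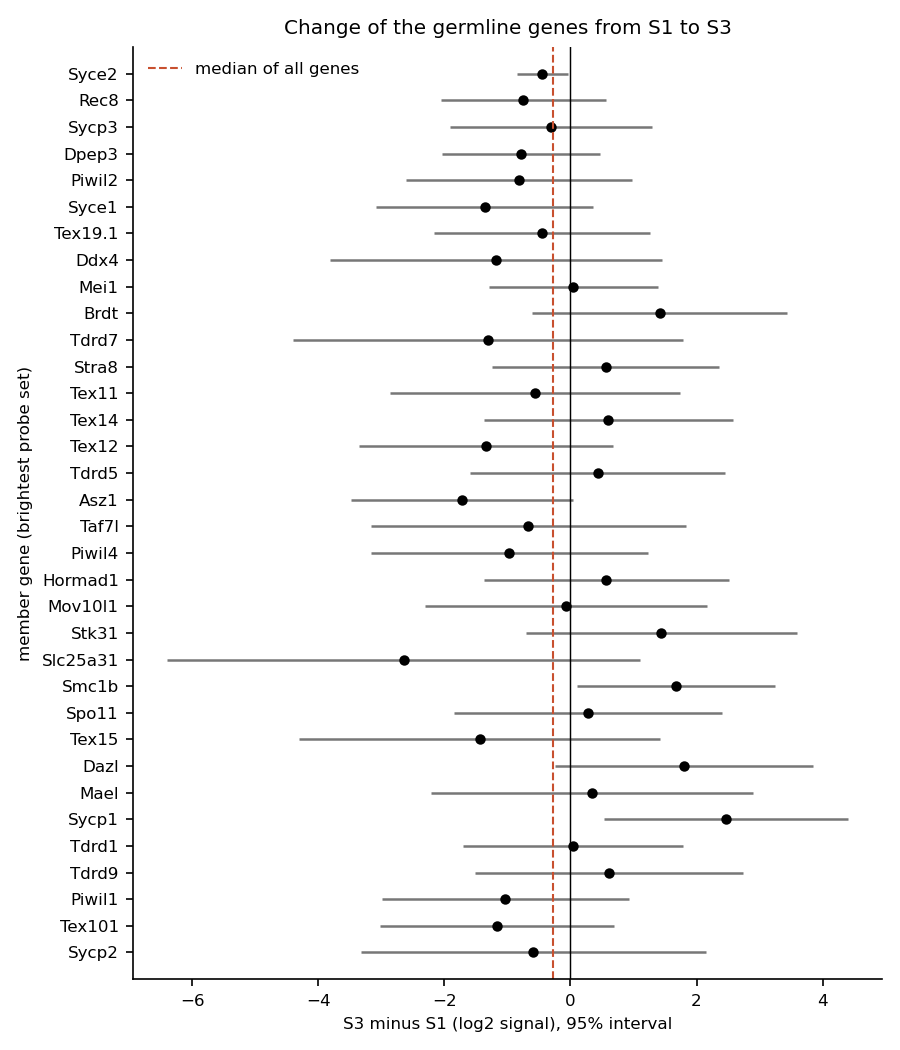
S3 minus S1 in log2 signal (x axis) for the brightest probe set of each germline gene (y axis, ordered by mean signal), from limma without a filter on dim genes. Points are estimates, lines 95% intervals, and the dashed line is the median of all genes (-0.28). The interval of Syce2 is the narrowest in the plot and runs from -0.86 to -0.04, and most other intervals span 0 and are wide.

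The precision limits what can be said of a change. The 95% interval of Dpep3 ran from -1.88 to 0.32 in log2 units, that of Rec8 from -1.95 to 0.46, that of Sycp3 from -1.85 to 1.24 and that of Brdt from -0.60 to 3.42. Changes of 2-fold (1 log2 unit) in either direction lie inside the interval for Sycp3. Syce2 is the exception, with an interval that leaves out a 2-fold change. The cells were pooled for each array, so fewer expressing cells and less RNA per cell cannot be told apart.

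The repressors of germline promoters were readable, and many fell. Of 25 measured genes of this list, 24 were above background on all 3 arrays of each subset. Of the 24 tested, 10 fell and none rose by limma, where 12.8% of all genes were called lower. At an unadjusted p under 0.05 there were 14 lower and 0 higher, where 24.2% of all genes were lower. The list's median log2 change was -0.76, or -0.43 relative to all genes. Dnmt3b, the de novo enzyme that methylates many germline promoters in the embryo, read 9.04, 8.45 and 9.05 on the S1 arrays and 4.67, 4.84 and 4.50 on the S3 arrays, and Dnmt3a read 8.85, 8.44 and 8.92 and then 6.13, 5.28 and 5.08. For both, every S3 array lay far below every S1 array, with log2 changes of -4.18 ± 0.33 and -3.24 ± 0.37 (SE, limma adjusted p = 0.00252 and 0.00342). Trim28, a corepressor of zinc finger proteins, fell by 1.29 on the log2 scale (SE 0.15, adjusted p = 0.00357). The other 7 were named after their values were seen. Mga, the E-box partner of Max, read 9.32, 9.61 and 9.94 in S1 and 8.68, 8.08 and 8.72 in S3, with no overlap (-1.13 ± 0.25, adjusted p = 0.0232), and Max changed by -0.58 ± 0.14 (adjusted p = 0.0357). Ehmt1, a histone H3 lysine methyltransferase, changed by -1.59 ± 0.32 (adjusted p = 0.0192), and Rnf2, a Polycomb ubiquitin ligase, by -0.97 ± 0.19 (adjusted p = 0.0180). Wdr5, Cbx1 and the remodeller Hells also fell. Of 18 other settings, Max held its call in 5, Mga and Rnf2 in 10 each, Ehmt1 in 12, Cbx1 in 14, Hells in 15, Wdr5 in 16 and Trim28 in 17, all with a negative sign throughout. Adjusted p reached 0.815 for Cbx1 and 0.163 for Hells, both with the mean of probe sets, and 0.078 for Ehmt1 without S3 replicate 3. Over the same settings the highest limma adjusted p was 0.673 for Max, 0.601 for Mga and 0.598 for Rnf2. With each array centred on its median, 4 of the 24 were called lower, where 8.13% of all genes were. With quantile normalization there were 8, where 9.42% of all genes were.

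E2f6, which recruits the complex to E2F sites, read 7.45 ± 0.91 in S1 and 6.73 ± 1.14 in S3 and was not called (-0.72 ± 0.67, limma adjusted p = 0.562). Neither were L3mbtl2 (-0.71 ± 0.23, adjusted p = 0.0816) and Pcgf6 (-0.55 ± 0.99, adjusted p = 0.785). The maintenance enzyme Dnmt1 and its partner Uhrf1 were not called either (adjusted p = 0.809 and 0.783). Dnmt3l, the germ cell cofactor of de novo methylation, was above background on 1 S1 and 2 S3 arrays and was too dim to be tested. In the fit without a filter none of the 34 germline genes was called higher, where 1.5% of all genes were. Only 10 of them were in the main fit used for the repressors, and most of their intervals are wide. Whether the repressors bear on the germline genes was not tested.

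**Figure D4:**
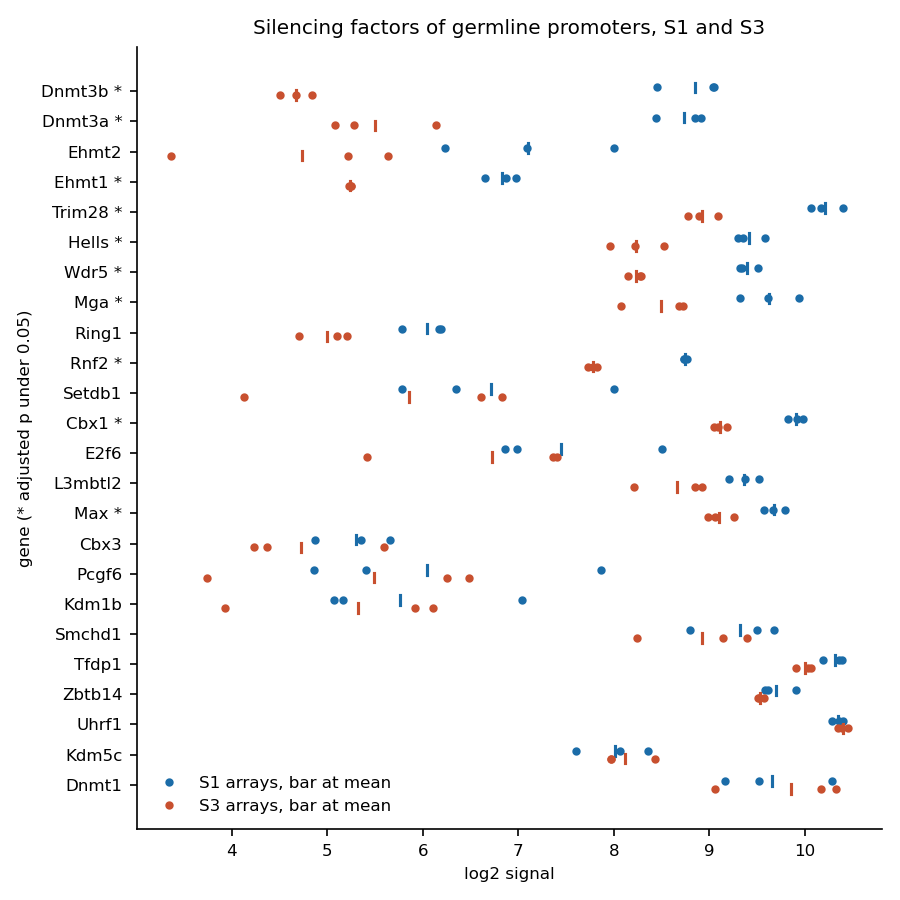
Log2 signal (x axis) of 24 repressors of germline promoters (y axis, ordered by change), with 1 point per array and a bar at the mean of each subset, blue for S1 and red for S3. A star marks the 10 genes with an adjusted p under 0.05. Dnmt3b and Dnmt3a show the widest separation, with log2 changes of -4.18 and -3.24.

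Of 21 other measured genes of meiosis and recombination, 12 were above background on all 3 S1 arrays and 11 on all 3 S3 arrays. None of the 13 tested was called, where 2.53% of all genes were called higher and 12.8% lower. At an unadjusted p under 0.05 limma gave 2 higher and 0 lower, against 5.33% and 24.2% of all genes. The 2 highest by mean signal were Psmc3ip, an accessory factor of strand exchange (8.63 ± 0.47 in S1 and 8.52 ± 0.18 in S3), and Ythdc2, an RNA helicase of meiotic entry (7.86 ± 0.47 and 7.78 ± 0.40). The 2 with a low unadjusted p, named after their values were seen, were Rad51c, a recombination factor of dividing cells too (5.13 ± 0.70 in S1 and 6.63 ± 0.31 in S3, limma adjusted p = 0.0679), and Msh5 (3.31 ± 1.01 and 4.81 ± 0.70, adjusted p = 0.167). Of 13 other measured genes of the piRNA pathway, 6 were above background on all 3 S1 arrays and 5 on all 3 S3 arrays. Of 8 tested, 1 was called lower, near the 12.8% of all genes called lower. That gene was Pld6, a mitochondrial surface protein of piRNA production, which read 5.02, 5.72 and 5.51 in S1 and 1.46, 1.64 and 2.91 in S3. Every array was above background and the subsets do not overlap (log2 change -3.41 ± 0.52 (SE), limma adjusted p = 0.00744).

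Genes on a list of somatic relatives of germline genes were mostly readable. Stag1, Stag2 and Pum2 are on this list without a close relative among the 36. Of 22 measured, 21 were above background on all 3 S1 arrays and 20 on all 3 S3 arrays. Of 21 tested, 3 fell and 0 rose, near the 12.8% of all genes called lower (8 lower and 0 higher at an unadjusted p under 0.05, where 24.2% of all genes were lower), with a median log2 change of -0.19, where that of all genes was -0.33. Slc25a4, the muscle-type ADP/ATP carrier and a relative of Slc25a31, fell by 2.04 on the log2 scale (SE 0.20, limma adjusted p = 0.00302). Ago1, an Argonaute relative of the Piwi proteins, fell by 1.85 (SE 0.38, adjusted p = 0.0187) and Brd3, a BET relative of Brdt, by 1.12 (SE 0.22, adjusted p = 0.0171). Ago1 missed the threshold without S1 replicate 1 (adjusted p = 0.0693) and without S1 replicate 2 (0.0634). Brd3 missed it without S1 replicate 1 (0.0753), without S3 replicate 1 (0.051), with median centring (0.0906) and with the mean of probe sets (0.304). The cohesin subunits Smc1a (0.05 ± 0.35, adjusted p = 0.951) and Rad21 (0.39 ± 0.37, adjusted p = 0.565), relatives of Smc1b and Rec8, were named after their values were seen and were not called.

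**Figure D5:**
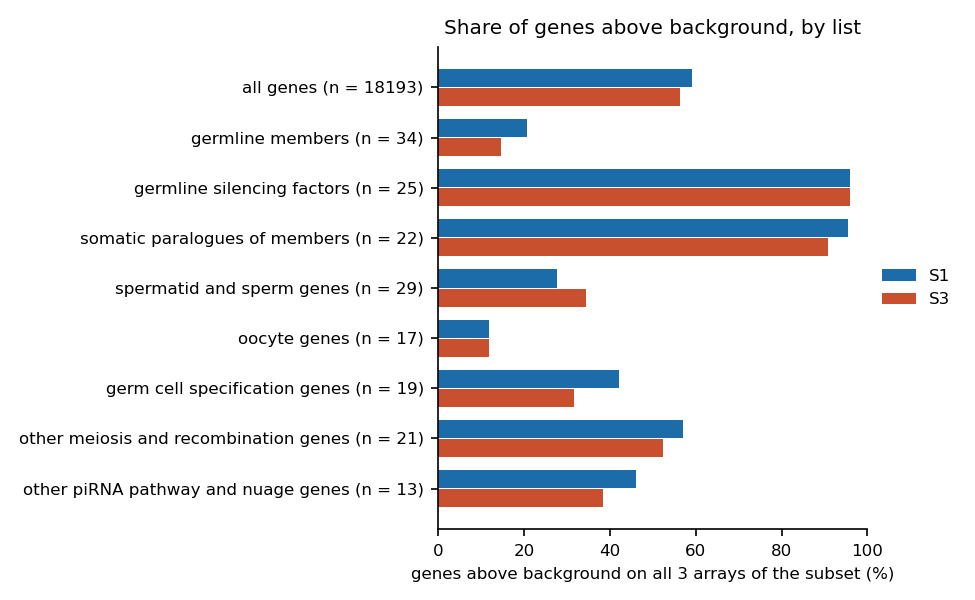
Share of genes above background on all 3 arrays of S1 (blue) and of S3 (red), in percent (x axis), for all 18193 genes, the 34 germline genes and 7 other lists (y axis, with the number of measured genes). The germline genes stand at 20.6% and 14.7%, against 59.1% and 56.4% of all genes.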

How the data were processed

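Total RNA of sorted cells was amplified and hybridised to 6 Affymetrix mouse arrays, 1 sample per array. The authors computed signals with MAS5 and scaled them to probe sets for 18S RNA, Gapdh and beta-actin, per the series' design text. The deposited values are log2 signals (-8.83 to 12.0), with the base of the logarithm taken from their size. No source used here gives the MAS5 version or its target.

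Of 45101 probe sets, 34945 outside the 64 controls had 1 gene symbol in the platform annotation, 932 several and 9160 none. Gene identifiers in the RefSeq table (GRCm38.p6) matched 34741 probe sets and changed 0 symbols. Each gene was read by its probe set of highest mean, and tested where that mean lay above the 40th percentile over the non-control probe sets. The subsets were compared in R 4.3.3 by a two-sided limma 3.58.1 model (lmFit, then eBayes with a trend on intensity, with 4 residual and 3.41 prior degrees of freedom) and adjusted by Benjamini-Hochberg over all genes at a threshold of 0.05. The fit was tested on simulated arrays. Background was the 95th percentile per array of 27 bacterial control probe sets.

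Genes named in full were those above background on all 3 arrays of a subset or called, plus a set of known methylation-silenced genes. From each other list, up to 3 called genes of smallest p were named, or the 2 of highest mean where none was called. The germline genes and lists were chosen with earlier results of these data known. Alternatives were 2 other scalings, 2 other filters, 2 other trends, the mean of probe sets, blocks for the replicate number and for short and long arrays, other background levels and leaving out each array. Added after seeing the data were the short and long block with median centring and each class of arrays alone.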

Additional observations from a re-analysis of the deposited data

How the results depend on the processing

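In every setting run limma called none of the germline genes higher. The share of all genes called higher ran from 0.995% (without S3 replicate 3) to 8.56% (short and long block with median centring). With 10 or fewer germline genes tested in all but the unfiltered fit, a count of 0 is near those shares. None was called lower either, except 2 of 10 with short and long arrays as a block (Ddx4 and Syce2, where 41.2% of all genes were lower) and 2 of 10 in the long arrays alone (Rec8 and Syce2, where 34.7% were lower and S1 is 1 array). The number readable depended on the background level. Above the maximum of the bacterial controls were 4 in S1 and 2 in S3, above their median 17 and 19, and 13 and 10 were above background on at least 2 of 3 arrays. Leaving out an array, which can only keep or raise a count over all arrays, gave 8 to 10 in S1 and 6 to 8 in S3. The highest S3 count came without S3 replicate 2. The shares of all genes at these other levels are not given here. Over the 9 genes followed through the settings, signs turned for Sycp3 (-0.80 to 0.27 without 1 array), Tex19.1 (-0.94 to 0.20 without 1 array and 0.074 in the short arrays alone), Brdt (-0.22 in the long arrays alone) and Syce2 (0.11 with the block and median centring).

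Counts over all genes moved more. Median centring gave 478 higher and 972 lower genes (33.0% of calls higher, against 16.5%) with a median log2 change of -0.10, quantile normalization 695 higher (38.1% of calls), and the mean of probe sets 796 lower. The short and long block gave 695 higher and 4922 lower, with median centring 1024 higher, the long arrays alone 617 and 4151, and the short arrays alone 2601 lower. Leaving out 1 array gave 119 to 370 higher and 541 to 1273 lower. Deviations of same-numbered arrays of S1 and S3 had correlations of 0.02, 0.39 and 0.41, and those of the other pairs ran from -0.55 to 0.39. These values do not settle whether the numbers pair the arrays, and the main fit did not pair them. With the replicate block 412 genes were higher and 1897 lower, and 0 germline genes were called.

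For the repressors, 4 were lower with median centring and 4 with the mean of probe sets, 19 with the short and long block, 18 in the long arrays alone and 5 to 9 without 1 array. For the somatic relatives, 5 were lower with the replicate block, 10 with the short and long block, 5 with that block and median centring, 7 in the long and 6 in the short arrays, and 1 to 3 without 1 array. For other meiosis genes, 2 were higher with median centring, 2 with quantile normalization, 2 with the short and long block with or without centring, 1 with the mean of probe sets, 1 with the replicate block, 1 in either class of arrays and 0 to 1 without 1 array, while 1 was lower without the filter, 1 with the short and long block and 1 in the long arrays. Of 8 other piRNA genes tested, 1 was higher with median centring, 1 with quantile normalization and 1 with the replicate block. With the short and long block 1 was higher, with or without centring, and without 1 array 0 to 1. There were 2 lower with the replicate block, 4 with the short and long block and 2 with median centring added. Of the spermatid genes 0 of 4 tested were lower with the 60th percentile filter. The counts were 0 of 10 with the mean of probe sets and 0 to 1 of 14 without 1 array. Of the 4 oocyte genes tested 0 to 1 were lower without 1 array. Of 2 germ cell specification genes tested with the 60th percentile filter, 1 was lower, where 17.1% of all genes were. In each list these changes were not traced to a cause: the cause was not tested. No signal over background can be read for genes near the control level, and 3 arrays a subset limit the precision.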

Other observations

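Genes of later germ cell stages were measured on the same arrays. Of 29 measured spermatid and sperm genes, 8 were above background on all 3 S1 arrays and 10 on all 3 S3 arrays, and 6 on no array. Of 14 tested, limma called 0 higher and 1 lower, where 2.53% and 12.8% of all genes were. At an unadjusted p under 0.05 there were 0 and 1, against 5.33% and 24.2% of all genes. The gene called was Oaz3, the testis form of antizyme, which restrains polyamine synthesis. It read 4.39, 4.90 and 4.46 in S1 and 2.23, 2.61 and 1.72 in S3 (log2 change -2.40 ± 0.44 (SE), limma adjusted p = 0.0132). It missed the threshold without S1 replicate 1 (adjusted p = 0.0508), without S1 replicate 2 (0.0560) and without S3 replicate 3 (0.0614). Of 17 measured oocyte genes, 2 were above background on all 3 S1 arrays, 2 on all 3 S3 arrays and 8 on no array. None of 4 tested was called. At an unadjusted p under 0.05 limma gave 0 higher and 1 lower, against 5.33% and 24.2% of all genes. The 2 of highest mean were Sohlh1 (3.56 ± 0.30 in S1 and 2.89 ± 0.70 in S3) and Sohlh2 (2.16 ± 1.02 and 1.89 ± 0.35), transcription factors of early germ cells.

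Of 19 measured genes of germ cell specification and pluripotency, 8 were above background on all 3 S1 arrays and 6 on all 3 S3 arrays, and 5 on none. Of 9 tested, limma called 2 lower and 0 higher, where 12.8% and 2.53% of all genes were. At an unadjusted p under 0.05 there were 3 and 0, against 24.2% and 5.33% of all genes. Both called genes are also known from blood progenitors. No S3 array read Kit, the stem cell factor receptor, above background, and S3 was at least 86.7-fold lower (limma adjusted p = 0.00252). The same held for Zbtb16, a repressor of transcription in germline stem cells, at least 17.1-fold lower in S3 (adjusted p = 0.00308). The other named genes here were chosen after their values were seen. Rhox5, an X-linked homeobox gene of the reproductive tract, read 3.97, 3.96 and 5.09 in S1 and -0.86, -1.07 and 3.78 in S3, with S3 replicate 3 far above the other S3 arrays (log2 change -3.72 ± 1.26 (SE), limma adjusted p = 0.0933). Meiob, a meiotic single-strand DNA binding protein, read 1.80, 1.60 and 2.27 in S1, just above background, and -1.96, -2.93 and -2.53 in S3, below it. It was too dim for the main test, was at least 1.56-fold lower in S3, and was called in the fit without a filter (limma adjusted p = 0.00792).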
